A study of Mus musculus with 4 samples.

Results

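The Mu class glutathione transferases are cytosolic enzymes that join glutathione to reactive, electron-poor compounds, so that the product can be carried out of the cell and excreted. Each enzyme is a pair of similar subunits, and the mouse genes of the class lie side by side on chromosome 3. In mouse liver Gstm1 is known as an abundant constitutive member and Gstm3 as a strongly inducible one, through the nuclear receptor CAR and the stress-responsive factor NRF2, while Gstm5 is known from brain and testis. The genes studied here, Gstm1, Gstm2, Gstm3, Gstm5 and Gstm6, were chosen by the annotation of the MG_U74Av2 array, with the null and control signals of their probe sets already known. They number 5 of the 8251 genes with a single symbol on the array and are read by 12 probe sets of 10833. The differences between genotypes among them are therefore given as descriptions without a p-value. Gstm4 and Gstm7, the remaining genes of the cluster, were not analysed here.

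Liver RNA was measured on 2 arrays of hepatic reductase null mice and 2 arrays of control mice, each numbered 7 and 8. The reductase is taken to be cytochrome P450 reductase (Por), which hands electrons to the microsomal P450 enzymes. In the known line of this name Por is removed from hepatocytes by a Cre recombinase under the albumin promoter, so the other liver cells keep the gene. The labels give neither the alleles nor the strain, age or sex of either genotype, and mention no treatment. They speak of pooled RNA from 3 animals of each genotype in each of 2 experiments, whereas the control titles name a mouse, so an array may stand for a pool or an animal. Por itself was not analysed here, and the genotype labels were not checked against it.

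The first bases of the Mu class transcripts show where the members share sequence. The windows below, from RefSeq on GRCm38.p6, run from 250 bases before to 50 bases after a transcript start, so the first transcribed base is position 251. They are shown for the 3 genes with a bright probe set on which the genotypes did not overlap, all on the minus strand, with capitals marking runs of at least 12 bases shared with another of the 3 windows. The Gstm3 window is chr3:107969125-107969424, that of Gstm2 is chr3:107986371-107986670, and that of Gstm1 is chr3:108017769-108018068. Gstm1 has 2 windows, and the one shown was picked because it shares the longer run with Gstm3. The longest run that the other Gstm1 window shares with Gstm3 is 10 bases.
Gstm3: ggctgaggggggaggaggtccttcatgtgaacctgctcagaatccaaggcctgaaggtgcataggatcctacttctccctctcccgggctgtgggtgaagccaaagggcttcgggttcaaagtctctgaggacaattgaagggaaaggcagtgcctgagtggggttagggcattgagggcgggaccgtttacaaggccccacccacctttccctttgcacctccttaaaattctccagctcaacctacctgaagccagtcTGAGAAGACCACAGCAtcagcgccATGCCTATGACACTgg
Gstm2: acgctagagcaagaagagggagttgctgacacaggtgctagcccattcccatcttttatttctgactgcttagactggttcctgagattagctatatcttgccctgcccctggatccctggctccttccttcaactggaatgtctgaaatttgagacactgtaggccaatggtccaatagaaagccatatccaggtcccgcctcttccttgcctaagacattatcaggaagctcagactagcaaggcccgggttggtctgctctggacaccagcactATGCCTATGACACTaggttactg
Gstm1: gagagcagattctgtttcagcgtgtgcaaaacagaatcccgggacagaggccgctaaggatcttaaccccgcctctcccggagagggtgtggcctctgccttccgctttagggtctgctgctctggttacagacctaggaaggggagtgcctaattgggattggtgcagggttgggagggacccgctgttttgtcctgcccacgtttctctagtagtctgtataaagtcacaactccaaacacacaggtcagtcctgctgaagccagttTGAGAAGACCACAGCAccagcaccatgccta

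Among the 3 windows shown, the shared runs lay in the transcribed part. Gstm3 and Gstm1 shared 16 bases (TGAGAAGACCACAGCA, positions 261 to 276 in Gstm3 and 270 to 285 in Gstm1), a run found in the windows of 2 genes only, these ones. Gstm3 and Gstm2 shared 14 bases that begin at the start codon (ATGCCTATGACACT, positions 285 to 298 in Gstm3), also found in the windows of 2 genes only. The Gstm1 window shown ends with ATGCCTA, the first bases of this run, so it could not hold all of it. Before the start sites none of the 3 windows shared such a run with another. Against the windows of Gstm5 and Gstm6, which are not shown, the longest run of 1 pair reached that length, 13 bases at positions 73 to 85 of the Gstm3 window, before the start site, shared with a window of Gstm6 and found in the windows of 9 genes. The sequences of the array's probes were not used here, but the probe set names record the design. An ending in _f_at marks a set whose probes may match a family of transcripts, _r_at marks one for which design rules were relaxed, and plain _at marks probes designed for 1 transcript. Of the 12 member probe sets 4 end in _f_at, 4 in _r_at and 4 in plain _at, whereas 77.4% of the array ends in plain _at, 8.65% in _f_at and 7.25% in _r_at. The share of a related transcript in any of the signals was not tested.

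Gstm3 had higher signals in null liver on both of its probe sets. The values are the authors' scaled linear signal of each probe set. Probe set 97681_f_at read 4859.7 and 6620.7 on null arrays 7 and 8, against 1321.9 and 1303.7 on control arrays 7 and 8. Probe set 97682_r_at read 3857.1 and 4891.7 on the null arrays, against 339.1 and 417.5 on the control arrays. The genotypes did not overlap on either set, and null array 8 was the brightest on both. The means were 5740.2 ± 1245 in null and 1312.8 ± 12.9 in control liver for 97681_f_at, and 4374.4 ± 732 in null and 378.3 ± 55.4 in control liver for 97682_r_at (SD, n = 2 each). On the log2 scale, with signals under a floor of 7.1 set to it, the null minus control difference was 2.11 ± 0.14 (SE) for 97681_f_at, 4.32-fold. It was 3.53 ± 0.15 (SE) for 97682_r_at, 11.5-fold. These differences ranked 20 and 4 among the 7241 probe sets tested. In tissue RNA, fewer cells of a type and less RNA per cell cannot be told apart.

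The probe sets of Gstm3 differed from each other by 1.42 in this log2 difference. Both sets carry the same GenBank entry in the annotation.

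Gstm2 was higher in null liver on one probe set and not clearly so on the other. Probe set 93009_at, with a plain ending, read 388.7 and 782.2 on null arrays 7 and 8, against 159.2 and 170.6 on the control arrays. The genotypes did not overlap, while the null arrays differed 2.01-fold between themselves. The log2 difference was 1.74 ± 0.30 (SE), 3.35-fold, with rank 37. Probe set 161357_r_at read 68.4 and 96.9 on the null arrays and 54 and 73.6 on the control arrays, and the genotypes overlapped. Its log2 difference was 0.37 ± 0.26 (SE), which is 1.37 below that of 93009_at.

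Gstm1, the abundant hepatic member, differed less. Probe set 93543_f_at read 8858.3 and 9393 on the null arrays, against 7140.4 and 7004.2 on the control arrays. The genotypes did not overlap, and the arrays of a genotype lay close together. The log2 difference was 0.37 ± 0.06 (SE), 1.29-fold, and the added linear signal was 2053. A probe set of the other kind, 161633_r_at, read 68.6 and 53 on the null arrays and 66.4 and 64 on the control arrays. Here null array 7 was the highest and null array 8 the lowest, and the log2 difference was -0.11 ± 0.22 (SE).

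**Figure D1:**
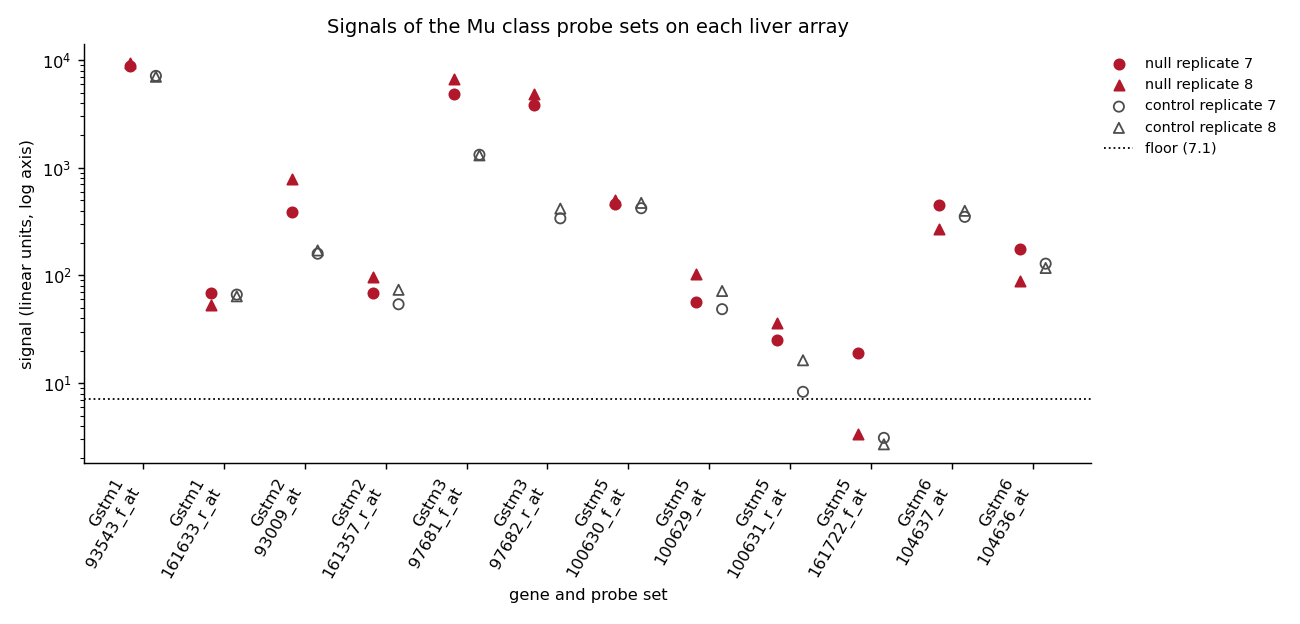
Signal of each Mu class probe set on each array, in linear units on a log axis, with null arrays as filled symbols left of control arrays as open symbols. Circles are replicate 7 and triangles replicate 8, and the dotted line is the floor of 7.1. Both Gstm3 probe sets, Gstm2 93009_at and Gstm1 93543_f_at have null signals above both control signals.

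Gstm5, the brain and testis member, gave 4 probe sets whose differences varied. Probe set 100630_f_at read 462.9 and 499.9 on the null arrays and 421 and 471.9 on the control arrays, with overlap between genotypes and a log2 difference of 0.11 ± 0.12 (SE). Probe set 100629_at, the plain one, read 56.1 and 103.3 on the null arrays and 48.6 and 71.7 on the control arrays. The genotypes overlapped here as well, and array 8 was the brighter in each genotype. The log2 difference was 0.37 ± 0.34 (SE). The dim 100631_r_at read 25.4 and 35.9 on the null arrays against 8.3 and 16.3 on the control arrays, without overlap, and its log2 difference of 1.38 ± 0.54 (SE) was 0.73 with 16 added to each signal in place of the floor. Probe set 161722_f_at read 19.2 on null array 7 and 3.4 on null array 8, against 3.1 and 2.7 on the control arrays. It was below the floor on 3 of the 4 arrays, was left out of the tested probe sets, and allows no fold.

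Gstm6 did not differ in one direction. Probe set 104637_at read 450.7 and 269.1 on null arrays 7 and 8, and 350 and 398.6 on the control arrays. Probe set 104636_at read 176.6 and 89.6 on the null arrays, and 128.7 and 117.3 on the control arrays. On both sets null array 7 was the highest of the 4 and null array 8 the lowest, so the control signals lay between them. The log2 differences were -0.10 ± 0.24 for 104637_at and 0.03 ± 0.31 for 104636_at (SE).

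**Figure D2:**
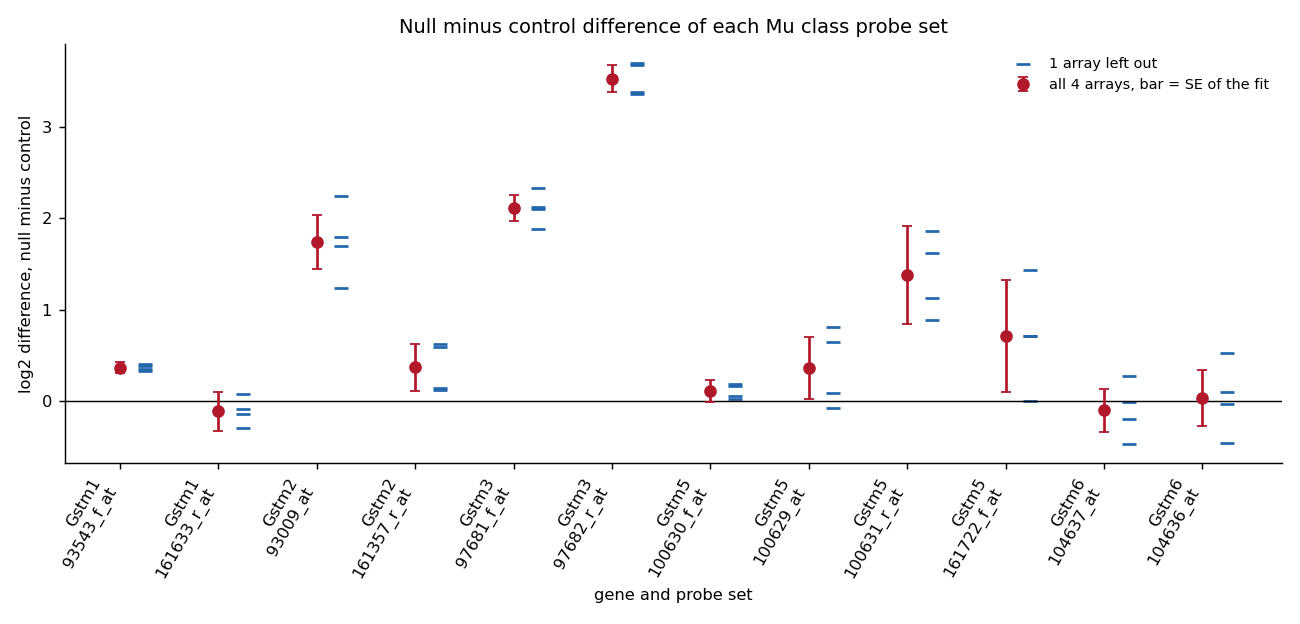
Null minus control log2 difference of each Mu class probe set (red, bar = SE of the fit) with the values after leaving out 1 array in turn (blue dashes). Gstm3 stays between 1.89 and 2.33 on 97681_f_at and between 3.36 and 3.70 on 97682_r_at, while both Gstm6 probe sets change sign with the array left out.

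Of the 12 member probe sets 11 passed the filter on dim signals. In the fit over all probe sets (limma, adjusted p under 0.05) 2 of these 11, both of Gstm3, were called higher in null liver, where 0.304% of all tested probe sets were. With the floor at the 50th percentile, without the filter or without the intensity trend of the variance, 0 member probe sets were called. In the fit as described none was called lower, where 0.0829% of all were. Null signals lay above control signals without overlap on 5 of the 11 (20.4% of all tested probe sets) and below on 0 of the 11 (23.4% of all). The log2 difference was above 0 on 9 of the 11 (48.9% of all), and the median over the 12 probe sets was 0.37, beside -0.01 over all tested probe sets. Gstm5 100631_r_at is among the 5 and the 9. It passed the filter only through its null signals, as its control signals of 8.3 and 16.3 were under 16.8. Since the genes were picked with this comparison known, nothing is read from these counts.

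The arrays of a genotype did not move together across the class. Null array 8 was above null array 7 by 1.01 on the log2 scale for Gstm2 93009_at, by 0.45 and 0.34 for the Gstm3 sets 97681_f_at and 97682_r_at, and by 0.08 for Gstm1 93543_f_at. It was below null array 7 for Gstm6, with -0.98 for 104636_at and -0.74 for 104637_at. Between the control arrays (8 minus 7) the same quantity was 0.10 for Gstm2 93009_at, -0.02 and 0.30 for the Gstm3 sets, -0.03 for Gstm1 93543_f_at, and -0.13 and 0.19 for the Gstm6 sets. Over all tested probe sets the SD of this difference was 0.55 between the null arrays and 0.47 between the control arrays. The gaps between null arrays exceeded 1 SD for Gstm2 93009_at and both Gstm6 sets, and did not for both Gstm3 sets and Gstm1 93543_f_at. This SD covers probe sets of every signal level. The SE of the fit was 0.06 for the bright Gstm1 93543_f_at and 0.54 for the dim Gstm5 100631_r_at. A gap under 1 SD is therefore not shown to be usual for sets as bright as those of Gstm3. The other Gstm2 set, 161357_r_at, was at 0.50 between the null arrays, and Gstm5 100629_at was at 0.88 between the null arrays and 0.56 between the control arrays, above 1 SD in both genotypes.

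**Figure D3:**
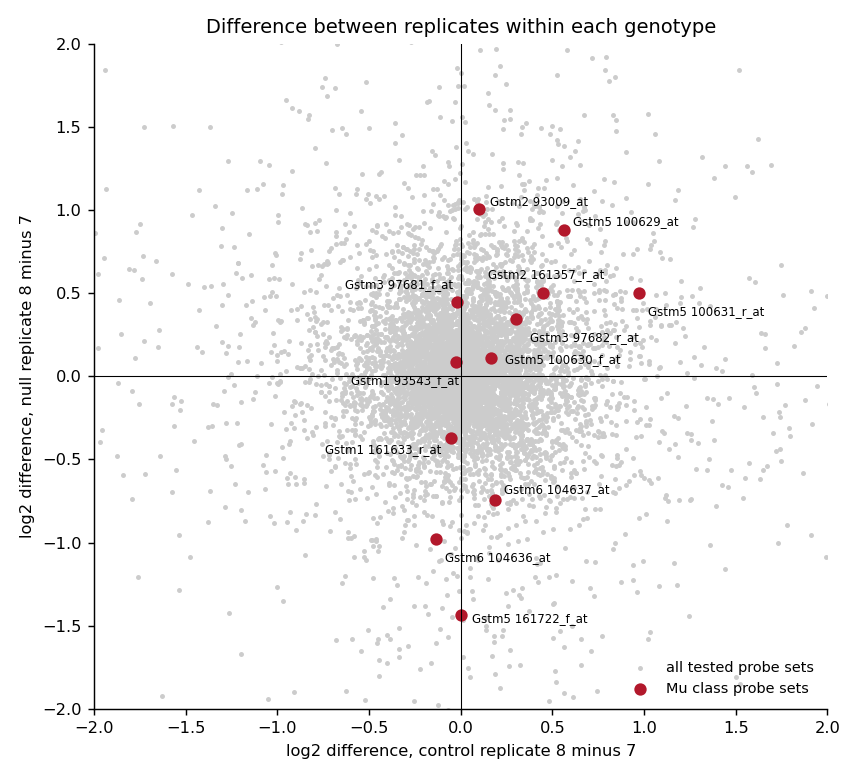
Log2 difference between replicates 8 and 7 within the null genotype (vertical) and within the control genotype (horizontal), for all tested probe sets (grey, those beyond 2 not drawn) and the 12 Mu class probe sets (red). Gstm2 93009_at sits at 1.01 on the null axis and the Gstm6 probe sets at -0.74 and -0.98, while their control values stay within 0.19 of 0.

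Null array 7 also had high signals of pancreatic acinar genes. The summed signal of the 4 acinar markers on the array was 2482.9 on null array 7 and 187.5 on null array 8, against 206.5 and 315.4 on the control arrays, with the digestive enzyme gene Ctrb1 at 1307.3 on null array 7. Without null array 7 the log2 difference of Gstm3 was 2.33 on 97681_f_at and 3.70 on 97682_r_at, and that of Gstm2 93009_at was 2.25, each at least as large as with it. Without null array 8 these values were lower, 1.89 and 3.36 for the Gstm3 sets and 1.24 for Gstm2 93009_at, so of these 3 probe sets Gstm2 93009_at depended most on which null array was kept. For Gstm6 the log2 difference without null array 7 was -0.46 on 104636_at and -0.47 on 104637_at. Without null array 8 it was 0.52 on 104636_at and 0.27 on 104637_at. Albumin (Alb), the defining hepatocyte product, read 9809.2 and 9108.7 on the null arrays and 8991 and 9729 on the control arrays, and the 9 hepatocyte markers summed to 36021 and 33780 in null and 37410 and 37342 in control liver. The 9 macrophage markers summed to 2114 and 2266.6 in null and 1679.7 and 1631.9 in control liver, with 1 of 9 called higher (0.304% of all tested probe sets). Of the 9, 8 had a log2 difference above 0 (48.9% of all). They did not move alike. Mpeg1 read 361.4 and 377.9 in null and 150 and 134.3 in control liver. Clec4f read 389.2 and 374.7 in null and 395.6 and 375 in control liver. The 7 stellate cell markers summed to 1391.3 and 1641.8 in null and 1088.9 and 1124.7 in control liver. Of these 7, 0 were called higher or lower (0.304% and 0.0829% of all tested probe sets). No marker was listed at 0. The part of these cells in the Mu class signals was not tested.

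The class stands in a row on chromosome 3, in the order Gstm5, Gstm7, Gstm6, Gstm3, Gstm2, Gstm1, Gstm4. The large differences belonged to Gstm3 and its neighbour Gstm2, with Gstm6 on the other side of Gstm3 near 0. Of the 20 nearest protein-coding genes with a named probe set, 10 on each side of the row, 12 were tested and 0 passed in either direction in limma, with 2 higher and 1 lower at an unadjusted p under 0.05. Of all tested probe sets 0.304% passed higher and 0.0829% lower, and 6.16% were higher and 6.46% lower at that unadjusted threshold. The median log2 difference of the neighbours was -0.05. Gnai3, an inhibitory G protein subunit gene, was at -0.54 ± 0.14 (SE, adjusted p = 0.193). Csf1, which encodes a macrophage growth factor and is the nearest of them on the Gstm5 side, was at 0.81 ± 0.22 (SE, adjusted p = 0.216), and Dram2 was at 0.54 ± 0.22 (SE, adjusted p = 0.362).

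**Figure D4:**
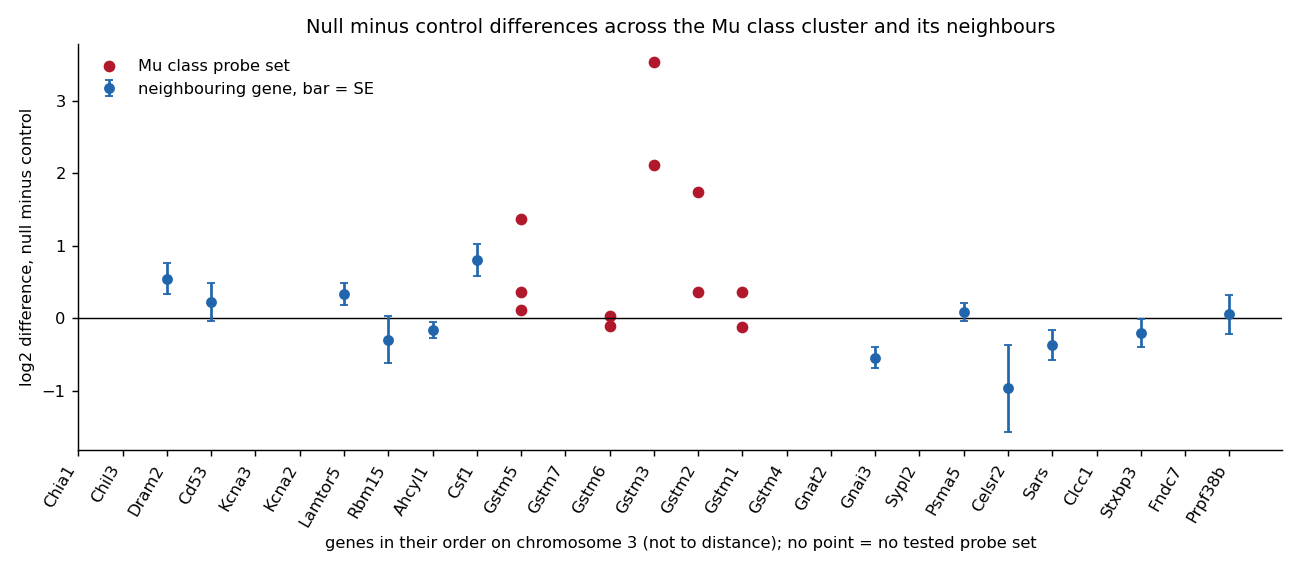
Null minus control log2 difference of the tested genes in their order on chromosome 3, with the Mu class probe sets in red and neighbouring genes in blue (bar = SE). Gstm3 stands highest at 2.11 and 3.53, followed by Gstm2 93009_at at 1.74 and Gstm5 100631_r_at at 1.38, while the neighbours lie between -0.97 and 0.81.

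In the promoters of the members 5 motifs were searched, on both strands of the 8 RefSeq windows of the 5 genes. The core of the antioxidant response element, TGACNNNGC, to which NRF2 binds, was found in 1 of the 8 windows, that of Gstm5 at positions 209 to 217, and in 12.4% of all 32851 windows. The AP-1 motif TGANTCA was found in the same window alone (7.81% of all windows). The nuclear receptor motif AGGTCA was found at positions 246 to 251 of the Gstm1 window shown above (16.3% of all), and the TATA box letters TATAAA at positions 221 to 226 of that window and at positions 291 to 296 of the Gstm5 window, after the transcript start (13.6% of all). CCAAT was found in 6 of the 8 windows, among them that of Gstm2 at positions 166 to 170 and 174 to 178, and in 37.4% of all. None of the 5 motifs overlapped another in these windows. The Gstm3 window held none of the 5. These matches describe letters in short windows and are not binding sites.

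In the fit as described only Gstm3 of the Mu class passed the test, and no glutathione transferase outside the class did. Of 22 other transferase genes 13 were on the array and 11 were tested. In limma 0 rose and 0 fell (0.304% and 0.0829% of all tested probe sets). At an unadjusted p under 0.05, 1 was higher and 2 were lower (6.16% and 6.46% of all tested probe sets). The median log2 difference was -0.03. The microsomal Mgst3 read 237.3 and 155.4 in null and 96.3 and 122.5 in control liver (0.82 ± 0.24, SE, adjusted p = 0.245). The Pi class Gstp1 read 7571.9 and 7669.5 in null against 8549.6 and 8848.5 in control liver (-0.19 ± 0.06, SE, adjusted p = 0.247). Gsta4, which conjugates products of lipid peroxidation, read 84.9 and 105.6 in null and 137 and 133.9 in control liver (-0.52 ± 0.18, SE, adjusted p = 0.301).

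The genes that supply glutathione did not pass either. Of 16 genes of synthesis and recycling 9 were on the array and 7 were tested. In limma 0 were called higher or lower (0.304% and 0.0829% of all tested probe sets). At an unadjusted p under 0.05, 0 were higher and 3 lower (6.16% and 6.46% of all tested probe sets). The median log2 difference was -0.30. Gclc, the catalytic subunit of the rate-limiting enzyme of glutathione synthesis, read 432.6 and 446 in null against 591.3 and 657.7 in control liver (-0.51 ± 0.11, SE, adjusted p = 0.136). Its modifier subunit Gclm was at -0.31 ± 0.13 (adjusted p = 0.395) and Slc3a2, the heavy chain of amino acid transporters including the cystine carrier, at -0.34 ± 0.14 (adjusted p = 0.380; SE for both).

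Of 14 genes that export or break down conjugates 11 were on the array and 9 were tested. In limma 0 were called higher or lower (0.304% and 0.0829% of all tested probe sets). At an unadjusted p under 0.05, 1 was higher and 1 lower (6.16% and 6.46% of all tested probe sets). The median log2 difference was -0.08. Abcc3, a conjugate pump of the sinusoidal membrane, read 1231.4 and 1195.3 in null and 746 and 805.8 in control liver (0.65 ± 0.09, SE, adjusted p = 0.0551, and called after quantile normalization). Acy3, an aminoacylase that acts on mercapturates, was at -0.39 ± 0.14 (SE, adjusted p = 0.337) and the peptidase gene Anpep at 0.24 ± 0.13 (SE, adjusted p = 0.511). Of 16 peroxide and thiol defence genes 12 were tested, with a median of -0.03. Here too 0 were called higher or lower in limma (0.304% and 0.0829% of all). At an unadjusted p under 0.05, 2 were higher and 1 lower (again beside 6.16% and 6.46% of all). Gpx4, which reduces lipid peroxides with glutathione, read 477.8 and 492.9 in null and 257.1 and 285.2 in control liver (0.84 ± 0.12, SE, adjusted p = 0.0551, and called after quantile normalization). Glo1, the glyoxalase that works on a glutathione adduct, was at -0.47 ± 0.09 (SE, adjusted p = 0.101), and Prdx2, a peroxiredoxin, at 0.24 ± 0.09 (SE, adjusted p = 0.355). Another tested set of Prdx2, 99608_at, went the opposite way, at -0.52 ± 0.29 (SE, adjusted p = 0.520). Srxn1, sulfiredoxin, which restores overoxidised peroxiredoxins and is named here after its values were seen, had probe sets that disagreed. Its brightest, 161090_i_at, which stands for the gene in these counts, read 77.1 and 100.2 in null and 106.9 and 104.2 in control liver (-0.26 ± 0.19, SE, adjusted p = 0.626). The other, 102780_at, read 104.9 and 162.4 in null and 46.6 and 51 in control liver (1.42 ± 0.25, SE, adjusted p = 0.0803).

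Genes for regulators of the class were tested for 9 of 10, with a median of -0.22. In limma 0 were called higher or lower (0.304% and 0.0829% of all tested probe sets). At an unadjusted p under 0.05, 0 were higher or lower (6.16% and 6.46% of all). Ahr, the dioxin receptor, was at 0.48 ± 0.21, Nr1i3, which encodes CAR, at -0.22 ± 0.11 and Rxra, its partner, at 0.37 ± 0.20 (log2, SE). The other probe sets of Nr1i3 were at 0.08 ± 0.13 (104506_at) and -0.18 ± 0.12 (104507_g_at, SE for both). Nfe2l2, which encodes NRF2 and is named here after its value was seen, was at -0.01 ± 0.22 (SE). Of 9 other genes known as CAR, PXR or NRF2 targets 8 were tested. All 8 had a log2 difference above 0 (48.9% of all tested probe sets), with a median of 0.72. In limma 2 rose (0.304% of all), and 8 were higher at an unadjusted p under 0.05 (6.16% of all). These 2 were Cyp3a11 by 0.81 ± 0.08 (SE, adjusted p = 0.0210) and Cyp2b10 by 5.14 ± 0.55 (SE, adjusted p = 0.0253). A control signal of Cyp2b10, 1 of the 2, was below the floor. Cyp2c29 was at 1.64 ± 0.28 (SE, adjusted p = 0.0803). This list was chosen with these results known, and it does not hold every such target. Further genes known as CAR or NRF2 targets were counted in the other lists and did not move alike. Among them Gclc was at -0.51, Gclm at -0.31, Gsta4 at -0.52, Txnrd1 at 0.06 and Abcc3 at 0.65. Srxn1 was at -0.26 on 161090_i_at and at 1.42 on 102780_at.

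**Figure D5:**
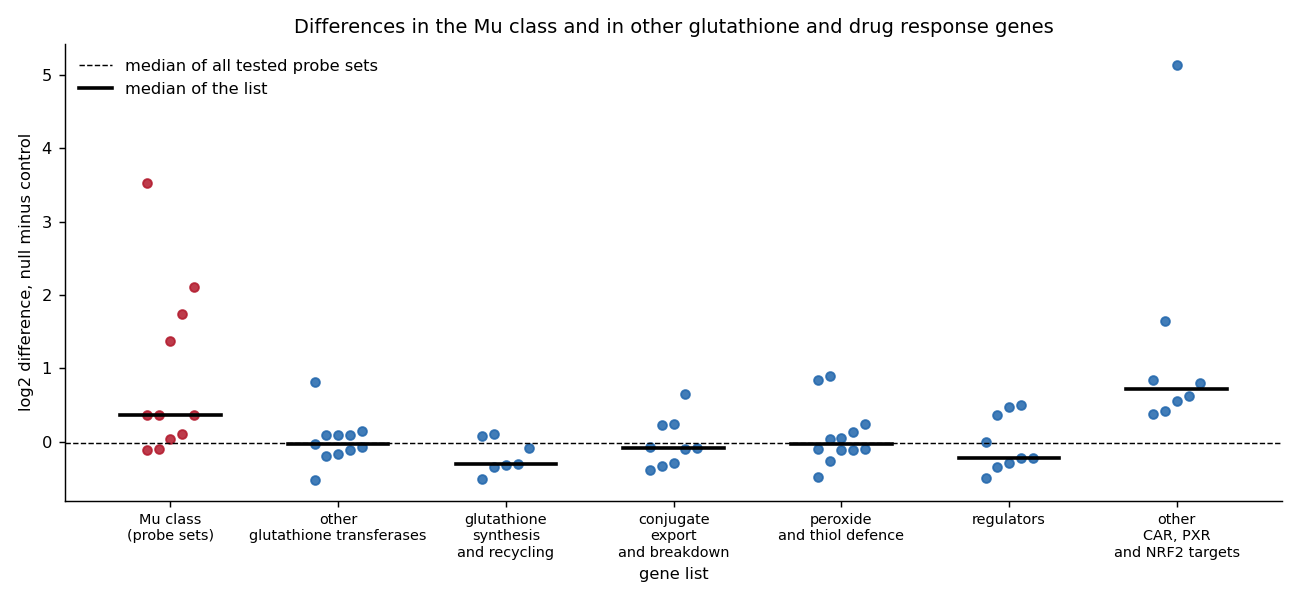
Null minus control log2 difference of each tested Mu class probe set (red) and of the tested genes of 6 other lists (blue, brightest probe set per gene), with list medians as bars and the median of all tested probe sets as a dashed line. The Mu class spans -0.11 to 3.53, other glutathione transferases -0.52 to 0.82 and glutathione synthesis genes -0.51 to 0.11.

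The genes whose pattern over the 4 arrays was most like that of Gstm3 97681_f_at were Jun, Lgals1, Cyp7a1, Anxa5 and Robo1, by the Euclidean distance between log2 values centred on each probe set's mean. The distance was 0.22 for Jun, an immediate early transcription factor that read 84.4 and 97.8 in null and 21.8 and 23.5 in control liver. It was 0.28 for Lgals1, a galectin, at 396 and 439.6 in null and 93.5 and 109.6 in control liver. It was 0.42 for Cyp7a1, the rate-limiting enzyme of bile acid synthesis, 0.48 for the annexin gene Anxa5 and 0.49 for Robo1, a guidance receptor. Of the Mu class, Gstm2 93009_at came nearest, at 0.55 with rank 9 of 7240, then Gstm5 100631_r_at at 1.02 with rank 54 and the other Gstm3 set, 97682_r_at, at 1.44 with rank 235. The likeness is a description over 4 arrays that share their genotype split.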

How the data were processed

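RNA of mouse liver was hybridised to 4 MG_U74Av2 arrays, 2 null and 2 control. The deposited values are linear signal intensities, 1 for each probe set. Per the labels, the authors derived them in GCOS from matching and mismatching oligonucleotides and scaled every array by its whole fluorescence. The version and scaling target are not stated in the labels. The median signal was 27.2 and 28.4 on the null arrays and 26.1 and 26.7 on the control arrays, and the small number of arrays limits the precision.

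Signals were floored at 7.1 (25th percentile of all signals) and put on the log2 scale. Probe sets with a mean above log2 of 16.8 (40th percentile) were tested, 7241 of the 12422 that are not controls. Limma 3.58.1 in R 4.3.3 (lmFit, eBayes with an intensity trend) compared genotypes over all of them, two-sided, with Benjamini-Hochberg adjustment and a threshold of 0.05. The members and lists were chosen with earlier results of these data known. An exact permutation test of 2 against 2 cannot go below p = 0.333. P-values and SEs rest on the spread between these arrays, which may be technical, and on a variance shared over probe sets of like signal. The shared part had 4.78 degrees of freedom and the arrays of a probe set 2. An SE can therefore differ from what the arrays of that set alone give. For Gstm2 93009_at the log2 SD between replicates was 0.51 beside an SE of 0.30. For Gstm1 93543_f_at it was 0.04 beside 0.06. The fit was tested on simulated data.

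Names came from the platform annotation of the probe sets, matched to the GRCm38.p6 gene table by gene identifier. A gene outside the Mu class was represented by its brightest tested probe set, and each list names the called genes and up to 3 of smallest p. The replicate numbers 7 and 8 are not said to pair the arrays, and the deviations of arrays with the same number did not correlate (r = -0.03 over probe sets). The alternatives changed the floor, the filter, the normalization, the variance trend and the replicate block, and left out each array.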

Additional observations from a re-analysis of the deposited data

How the results depend on the processing

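Both Gstm3 differences kept their direction. The floor, the filter, the trend and the block cannot move a difference of such bright probe sets, and leave it as it was. Adding 16 to each signal gave 2.10 for 97681_f_at and 3.47 for 97682_r_at, and quantile normalization 2.11 and 3.49. With 1 array left out the range was 1.89 to 2.33 and 3.36 to 3.70. The calls varied more. In all, 22 probe sets were called higher and 6 lower, and 0 and 0 with a floor at the 50th percentile, without the filter or without the intensity trend, where no Mu class probe set was called either. Quantile normalization gave 12 lower, and then 1 gene of conjugate export and 1 of peroxide defence were called higher, as was Gstm1 93543_f_at. With 1 array left out, 10 to 13 were higher and 0 to 4 lower, and both Gstm3 probe sets were called each time. Gstm2 93009_at was also called without null replicate 7. Each fit with 1 array left out had a single array in 1 genotype. Its spread therefore rested on the arrays of the other genotype and on the shared variance. The members were also picked with this comparison known, so nothing is read from their calls in these fits. With replicate number as a block (a shared number only) 37 were higher and 15 lower, among them both Gstm3 sets and Gstm2 93009_at. Gstm6 104636_at ranged from -0.46 to 0.52 and 104637_at from -0.47 to 0.27 with 1 array left out, and the sign also turned for Gstm1 161633_r_at (-0.30 to 0.07) and Gstm5 100629_at (-0.07 to 0.81). The dim Gstm5 100631_r_at was at 0.20 with the floor at the 50th percentile. The cause of these changes was not tested. The number of arrays limits all of them.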

Other observations

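A pair of probe sets that carry no single gene name followed Gstm3 97681_f_at more closely than any Mu class probe set did. Probe set 102649_s_at, at a distance of 0.32, read 150 and 209.3 on the null arrays and 37 and 49.7 on the control arrays. Probe set 98600_at, at a distance of 0.42, read 122.3 and 244.4 on the null arrays and 42.2 and 45.5 on the control arrays. Their genes were not analysed here.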
